A study of Mus musculus with 6 samples.

Results

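The genes described here are the enzymes of the tricarboxylic acid (TCA) cycle and the proteins that decide how much pyruvate enters it. They are 35 of the 37979 genes in the expression table of the gastrocnemius (GAS) muscles of Kvβ2 KO and WT mice, and fall into 5 roles. The roles are 20 TCA cycle enzymes with their cytosolic or NADP-using counterparts, 4 parts of the pyruvate dehydrogenase complex, 4 kinases and 3 phosphatase genes that act on this complex, and 4 genes of anaplerosis and amino group transfer. All 35 were found in the table, and they were taken by symbol and role, not by a threshold on a measured value. The choice was made with earlier results of these data known.

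Muscle mitochondria burn pyruvate and fatty acids by turning both into acetyl-CoA, which citrate synthase feeds into the TCA cycle, and the cycle passes electrons on to the respiratory chain. The pyruvate dehydrogenase complex makes the acetyl-CoA that comes from sugar. Its kinases switch it off by phosphorylation, its phosphatases switch it back on, and the kinase made from *Pdk4* is known to increase in muscle with fasting and fat use. Anaplerotic enzymes refill the cycle, and the aminotransferases and malate dehydrogenases of cytosol and mitochondria together carry the electrons of cytosolic NADH inwards.

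Kvβ2 is an auxiliary subunit of voltage-gated potassium channels encoded by *Kcnab2*. The GAS muscles of 3 untreated Kvβ2 -/- (KO) and 3 Kvβ2 +/+ (WT) mice at 20 weeks of age were sequenced with 1 library per mouse, numbered 1, 7 and 8 in each genotype. The study worked with male mice bred from hemizygous Kvβ2 +/- parents and gives no strain, and since the KO mice lack Kvβ2 in every tissue, effects that arise in the muscle fibers and effects that reach them from elsewhere cannot be told apart. Values are FPKM, which divide the fragments of a gene by its transcript length in kilobases and by the size of the library, and fold changes are KO against WT on log2(FPKM + 0.1), a scale that shrinks the fold changes of weakly expressed genes.

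*Kcnab2* did not exceed 0.0151 FPKM in any KO library and ranged from 0.1 to 0.233 FPKM in WT muscles, in the direction of the labels. The depth estimated from the FPKM steps was 15040000 to 19160000 fragments in the KO and 20600000 to 21300000 in the WT libraries, and a single fragment from a transcript 1 kilobase long equals 0.0469 to 0.0665 FPKM. Of 8 markers listed for slow and oxidative fibers, 7 ordered the libraries alike, with KO 8 highest, then KO 7, WT 1, WT 7, KO 1 and WT 8, and summed to 39.4 to 815 FPKM in WT and 304 to 1687 FPKM in KO muscles. The eighth, *Myh2*, encodes the fast type IIa myosin and is kept out of this sum, and it was at 178 to 274 FPKM in WT and 304 to 419 FPKM in KO muscles. The 9 fast fiber markers summed to 41060 to 58470 FPKM over all libraries, with *Myh4*, *Tnnt3* and *Atp2a1* listed at 0 in each of them. The sum therefore rests on the other 6, whose means ran from 564 FPKM (*Myh1*) to 13720 FPKM (*Mylpf*). Whether the values of 0 reflect absent transcripts or the quantification was not tested. The 6 adipocyte markers summed to 7.76 to 35.1 FPKM in WT and 45.3 to 172 FPKM in KO muscles, without overlap. The markers of macrophages, endothelial cells, fibroblasts, Schwann cells and erythroid cells overlapped between the genotypes in their sums. Of the single markers in these lists, the erythroid *Hba-a1* (27.4 to 43.5 FPKM in WT, 56.1 to 116.8 FPKM in KO muscles) and *Hba-a2* did not overlap. Neither did the endothelial *Vwf* (2.17 to 2.92 FPKM and 3.08 to 4.12 FPKM). All 3 were higher in KO muscles, and the other markers of these lists overlapped. In bulk tissue, fewer cells of a type and less RNA per cell cannot be told apart.

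The 35 genes were among the most abundant transcripts of the muscle. Their median level was 140.0 FPKM, against 4.99 FPKM for the 12334 tested genes, those averaging 0.5 FPKM or more, and 26 of the 35 lay at or above the 90th percentile. Of the 35, 20 averaged at least 100 FPKM, and *Pdk3* and *Pdp2* alone averaged less than 1 FPKM. All 35 passed the filter on low values.

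None of the 35 genes was called at an adjusted p under 0.05 (limma, Benjamini-Hochberg over all tested genes), where 0.324% of all tested genes were called. At an unadjusted p under 0.05, 6 genes (17.1%) were higher in KO muscles, against 15.3% of all tested genes. These were *Ogdh*, *Sdhb*, *Mdh2*, *Pdhx*, *Pdk2* and *Pcx*. *Dld* alone (2.86%) was lower, against 10.9% of all tested genes. Thus the share of higher genes was near that of the whole table, and the share of lower genes was below it. Of all tested genes at that p, 58.5% were higher, or 48.3% when the libraries were scaled to a common median. That scaling gave 4 higher and 2 lower among the 35, against 1667 higher and 1785 lower among all 12334 tested genes. When each library was weighted by its estimated quality (array weights), 6 of the 35 were called, but so were 25.5% of all tested genes.

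For 9 genes (25.7%) the lowest KO library still exceeded the highest WT library, namely for *Aco1*, *Idh3g*, *Ogdh*, *Sdhb*, *Mdh2*, *Pdhx*, *Pdk2*, *Pdp2* and *Pcx*, against 18.3% of all tested genes. The reverse held for *Idh3a*, *Dld*, *Sucla2* and *Pdha1* (11.4%), against 16.2% of all tested genes. The other 22 genes overlapped between the genotypes. The median log2 fold change of the 35 was 0.015, and that of all tested genes was 0.01. For a single gene, 3 against 3 libraries cannot give an exact permutation p under 0.1.

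**Figure D1:**
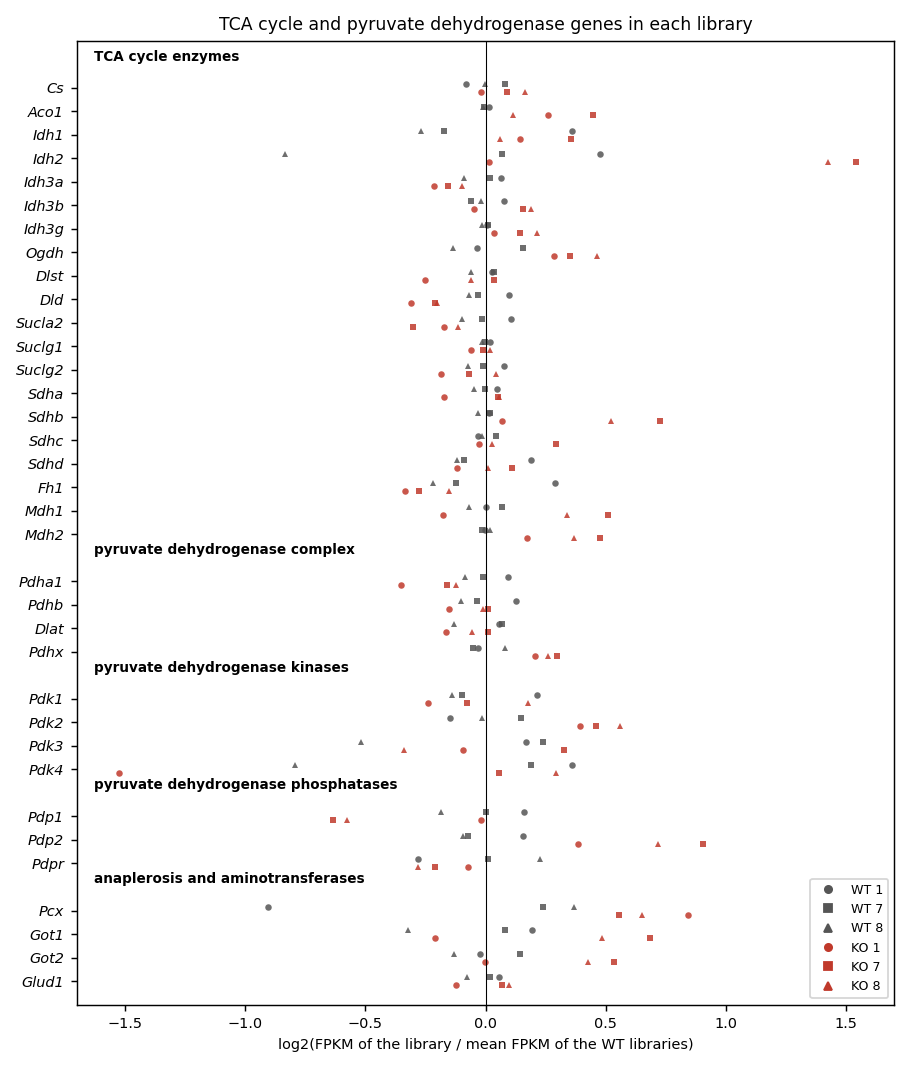
Each point is 1 library of the 35 genes, as the log2 ratio of its FPKM to the mean of the WT libraries, with WT and KO libraries in different colours, replicates 1, 7 and 8 in different symbols, and genes grouped by their 5 roles. For 9 genes all KO points lie to the right of all WT points, for 4 genes to the left, and the points of *Idh2*, *Pdk4* and *Pcx* are spread most widely.

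The first steps of the cycle gave values close to each other in KO and WT muscles. *Cs*, citrate synthase, often used as a measure of mitochondrial content, was at 274, 306 and 289 FPKM in WT 1, 7 and 8, and at 285, 308 and 325 FPKM in KO 1, 7 and 8. The groups overlapped, and the log2 fold change was 0.08, with a 95% interval of -0.16 to 0.32. This interval includes lower as well as higher levels in KO muscles. *Aco1*, the cytosolic aconitase that doubles as an iron sensor, was far less abundant, at 4.85 to 4.93 FPKM in WT and 5.28 to 6.65 FPKM in KO muscles. Its groups did not overlap, with an unadjusted p of 0.0644 in limma.

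The 3 subunits of the NAD-dependent isocitrate dehydrogenase, which carries the oxidative flux of the cycle, lay between 228 and 303 FPKM in every library. The catalytic subunit *Idh3a* was lower in all KO libraries (249.7 to 271 FPKM) than in all WT libraries (272 to 303 FPKM). The regulatory subunit *Idh3g* was higher in all KO libraries (239 to 269.8 FPKM, against 230.5 to 234.5 FPKM). The groups of *Idh3b* overlapped. The log2 fold changes were -0.15 for *Idh3a* and 0.13 for *Idh3g*, neither with an unadjusted p under 0.05 in limma, and after correction for GC content (described further on) they were 0.10 and 0.08, on the same side of 0.

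The NADP-dependent isocitrate dehydrogenases supply reducing power rather than feed the respiratory chain. *Idh2*, the mitochondrial form, was at 79.1, 59.6 and 31.9 FPKM in WT 1, 7 and 8, and at 57.4, 165 and 152 FPKM in KO 1, 7 and 8. KO 7 and KO 8 were the 2 highest libraries, while KO 1 lay among the WT libraries. The log2 fold change was the largest of the 35 genes, at 1.09 with a standard error of 0.47 (limma, adjusted p = 0.191). *Idh1*, the cytosolic form, was at 7.22 to 11.1 FPKM in WT and 9.05 to 11.1 FPKM in KO muscles. As a share of both forms by FPKM, *Idh1* made up 11.5% to 18.5% in WT and 5.61% to 14.3% in KO muscles, with KO 7 and KO 8 below all other libraries.

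*Ogdh* (ENSMUSG00000020456, plus strand of chromosome 11, 6291633 to 6356642 in GRCm38) encodes the first component of the alpha-ketoglutarate dehydrogenase complex. It was at 160, 182 and 149 FPKM in WT 1, 7 and 8, and at 199.5, 209 and 226 FPKM in KO 1, 7 and 8. Every KO library was above every WT library. The means were 164 ± 16.8 FPKM in WT and 211 ± 13.3 FPKM in KO muscles (SD, n = 3 each), a log2 fold change of 0.37 with a standard error of 0.12 (limma, unadjusted p = 0.013, adjusted p = 0.109).

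The other components of this complex were not higher. *Dlst*, the core transferase, was at 98.0 to 105 FPKM in WT and 86.0 to 105 FPKM in KO muscles, with overlap. *Dld* (ENSMUSG00000020664, minus strand of chromosome 12, 31331277 to 31351453) encodes the dihydrolipoamide dehydrogenase that this complex shares with pyruvate dehydrogenase. It was at 148, 135 and 131 FPKM in WT 1, 7 and 8, and at 111, 119 and 119.8 FPKM in KO 1, 7 and 8. All KO libraries were below all WT libraries, with a log2 fold change of -0.24 and a standard error of 0.10 (limma, unadjusted p = 0.0433, adjusted p = 0.18).

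Succinyl-CoA ligase gives the cycle its own ATP or GTP, depending on which beta subunit joins the common alpha subunit. The ATP-forming *Sucla2* was at 238 to 273 FPKM in WT and 206 to 235 FPKM in KO muscles, without overlap (unadjusted p = 0.112 in limma). The GTP-forming *Suclg2* was at 21.0 to 23.3 FPKM in WT and 19.4 to 22.8 FPKM in KO muscles, and the alpha subunit *Suclg1* at 191 to 195 FPKM and 184 to 195 FPKM, both with overlap. *Sucla2* made up 91.9% to 92.1% of the beta subunit FPKM in WT and 90.7% to 92.1% in KO muscles, so this muscle expressed mainly the ATP-forming type in both genotypes. The log2 fold change of *Suclg1* was -0.02, with a 95% interval of -0.23 to 0.19.

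Succinate dehydrogenase belongs to both the cycle and the respiratory chain, where it is complex II. *Sdhb* (ENSMUSG00000009863, plus strand of chromosome 4, 140961203 to 140979193) encodes its iron-sulfur subunit. It was at 205, 206 and 199 FPKM in WT 1, 7 and 8, and at 213, 336 and 292 FPKM in KO 1, 7 and 8. The WT libraries lay close together, KO 1 just above them, and KO 7 and KO 8 well above. The means were 203 ± 3.78 FPKM in WT and 280.4 ± 62.4 FPKM in KO muscles (SD, n = 3 each), a log2 fold change of 0.44 with a standard error of 0.17 (limma, unadjusted p = 0.0336, adjusted p = 0.16).

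The other 3 subunits overlapped between the genotypes. The flavoprotein *Sdha* had a log2 fold change of -0.02 and the membrane anchors *Sdhc* and *Sdhd* of 0.10 and 0.01. *Sdha* was at 222 to 237 FPKM in WT muscles and at 204 FPKM in KO 1, 237 FPKM in KO 7 and 238 FPKM in KO 8. *Fh1*, fumarase, was highest in WT 1 (220.4 FPKM) and lay at 143 to 165 FPKM in the other 5 libraries, with a log2 fold change of -0.24 (95% interval -0.59 to 0.11).

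*Mdh2* (ENSMUSG00000019179, plus strand of chromosome 5, 135778480 to 135790398), the mitochondrial malate dehydrogenase that closes the cycle, was the most abundant TCA cycle gene of the 35. It was at 380.3, 377 and 386 FPKM in WT 1, 7 and 8, and at 429, 531 and 492 FPKM in KO 1, 7 and 8. All KO libraries exceeded all WT libraries, by more than the whole range of the WT libraries. The means were 381 ± 4.16 FPKM in WT and 484 ± 51.2 FPKM in KO muscles (SD, n = 3 each), a log2 fold change of 0.34 with a standard error of 0.11 (limma, unadjusted p = 0.0183, adjusted p = 0.126).

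*Mdh1*, the cytosolic malate dehydrogenase, overlapped between the genotypes, at 288 to 317 FPKM in WT muscles and at 268, 431 and 383 FPKM in KO 1, 7 and 8. KO 1 was the lowest and KO 7 the highest of the 6 libraries. Its share of the FPKM of both malate dehydrogenases was 42.8% to 45.7% in WT and 38.4% to 44.8% in KO muscles. The summed level of the 20 TCA cycle genes was 3467 to 3756 FPKM in WT muscles and 3478, 4195 and 4105 FPKM in KO 1, 7 and 8, and no test was made on this sum.

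In the pyruvate dehydrogenase complex, *Pdha1* on the X chromosome encodes the catalytic subunit that the kinases phosphorylate. It was at 314, 293 and 277 FPKM in WT 1, 7 and 8, and at 231, 264 and 270.1 FPKM in KO 1, 7 and 8. The KO libraries lay below the WT libraries, the nearest pair being KO 8 and WT 8. The means were 294.5 ± 18.4 FPKM in WT and 255 ± 21.1 FPKM in KO muscles (SD, n = 3 each), with a log2 fold change of -0.21 and a standard error of 0.11 (limma, unadjusted p = 0.0965, adjusted p = 0.263). *Pdha1* (ENSMUSG00000031299, minus strand, 160122209 to 160138413) shares 603 exonic bases, 16.1% of its annotated exonic length, with *Map3k15* on the opposite strand, and whether fragments were assigned by strand is not given in the sources used here.

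The partner subunit *Pdhb* (135 to 158 FPKM in WT, 130.4 to 146 FPKM in KO muscles) and the core transferase *Dlat* (64.0 to 73.6 FPKM and 62.7 to 70.5 FPKM) overlapped. *Pdhx* (ENSMUSG00000010914, minus strand of chromosome 2, 103021075 to 103073513) encodes the protein that holds the shared dehydrogenase in the complex. It was at 35.1, 34.6 and 37.9 FPKM in WT 1, 7 and 8, and at 41.4, 44.1 and 42.9 FPKM in KO 1, 7 and 8. All KO libraries were above all WT libraries, within a narrow spread in both genotypes. The log2 fold change was 0.26 with a standard error of 0.10 (limma, unadjusted p = 0.0308, adjusted p = 0.156).

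Among the kinases, *Pdk2* (ENSMUSG00000038967, minus strand of chromosome 11, 95026258 to 95041354) was the most abundant and had the smallest unadjusted p of the 35 genes. It was at 128, 157 and 140.5 FPKM in WT 1, 7 and 8, and at 186, 195 and 209 FPKM in KO 1, 7 and 8. The lowest KO library was above the highest WT library. The means were 142 ± 14.7 FPKM in WT and 197 ± 11.6 FPKM in KO muscles (SD, n = 3 each), a log2 fold change of 0.48 with a standard error of 0.11 (limma, unadjusted p = 0.00374, adjusted p = 0.0785).

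*Pdk4*, the kinase known to respond to fasting and fatty acids, was the most variable of the kinases. It was at 125, 111 and 56.5 FPKM in WT 1, 7 and 8, and at 34.0, 102 and 119.9 FPKM in KO 1, 7 and 8. Its range within each genotype exceeded the difference between them, with a log2 fold change of -0.31 and a 95% interval of -1.48 to 0.86, and without KO 1 the log2 fold change was 0.26. *Pdk1* was at 10.8 to 13.9 FPKM in WT and 10.1 to 13.5 FPKM in KO muscles, and *Pdk3* at 0.449 to 0.808 FPKM over all libraries. *Pdk2* and *Pdk4* together therefore made up most of the kinase FPKM in every library. *Pdk4* contributed 46.8%, 39.7% and 27.1% of it in WT 1, 7 and 8, and 14.7%, 32.9% and 34.9% in KO 1, 7 and 8.

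By mean FPKM, the phosphatase catalytic subunit *Pdp1* (44.1) lay below *Pdk2* (169.5) and *Pdk4* (91.45) but above *Pdk1* (11.8) and *Pdk3* (0.642). *Pdp1* (ENSMUSG00000049225, minus strand of chromosome 4, 11958184 to 11966452), the calcium-stimulated form of muscle, was at 55.8, 50.04 and 43.9 FPKM in WT 1, 7 and 8, and at 49.2, 32.2 and 33.5 FPKM in KO 1, 7 and 8. KO 7 and KO 8 were below all WT libraries, while KO 1 lay among them. The log2 fold change was -0.40 with a standard error of 0.18 (limma, unadjusted p = 0.0622, adjusted p = 0.212). *Pdp2* was higher in all KO libraries, at 0.563 to 0.806 FPKM against 0.404 to 0.479 FPKM, but these levels rest on few fragments. *Pdpr*, the regulatory subunit, was at 20.1 to 28.5 FPKM in WT and 20.1 to 23.2 FPKM in KO muscles.

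The summed FPKM of the 4 kinases was 4.70 to 5.56 times that of *Pdp1* and *Pdp2* in the WT libraries. In the KO libraries it was 4.64 times in KO 1, 9.36 times in KO 7 and 10.1 times in KO 8. KO 7 and KO 8 thus stood above the WT range and KO 1 just below it, and this ratio of transcript levels, which says nothing of enzyme activity, was not tested.

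**Figure D2:**
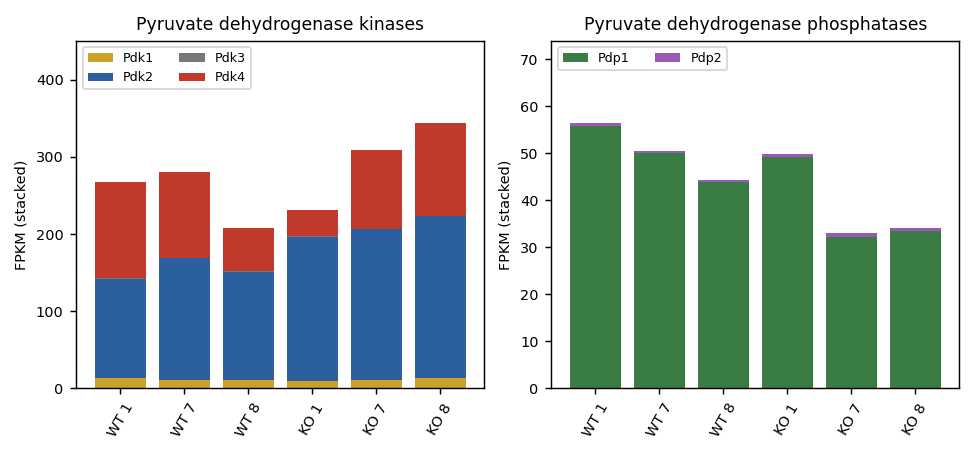
Stacked bars give the FPKM of the pyruvate dehydrogenase kinases and of its phosphatases in each of the 6 libraries. *Pdk2* is larger in every KO library (186 to 209 FPKM) than in every WT library (128 to 157 FPKM), *Pdk4* is smallest in KO 1 (34.0 FPKM), and *Pdp1* is smallest in KO 7 and KO 8 (32.2 and 33.5 FPKM).

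Pyruvate carboxylase, *Pcx* (ENSMUSG00000024892, plus strand of chromosome 19, 4510472 to 4621752), refills oxaloacetate and is also abundant in fat cells. It was at 7.46, 16.5 and 18.0 FPKM in WT 1, 7 and 8, and at 25.0, 20.5 and 21.9 FPKM in KO 1, 7 and 8. WT 1 stood far below the other libraries, and the groups did not overlap. The log2 fold change was 0.78 with a standard error of 0.31 (limma, unadjusted p = 0.0404, adjusted p = 0.174). Without WT 1 it was 0.38. The adipocyte markers, which also summed higher in all KO libraries, were at 35.1, 7.76 and 19.5 FPKM in WT 1, 7 and 8, and at 46.4, 172 and 45.3 FPKM in KO 1, 7 and 8. Their part in the *Pcx* values was not tested.

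The aspartate aminotransferases of the malate-aspartate shuttle overlapped between the genotypes. *Got2* (ENSMUSG00000031672, minus strand of chromosome 8, 95864134 to 95888547), the mitochondrial form, was at 122, 137 and 113 FPKM in WT 1, 7 and 8, and at 124, 179.7 and 167 FPKM in KO 1, 7 and 8. KO 7 and KO 8 were the highest libraries, and the log2 fold change was 0.32 with a standard error of 0.16 (limma, adjusted p = 0.241). Of its exonic length, 9.0% is shared with *Gm45760* on the opposite strand. *Got1*, the cytosolic form, was at 105, 97.3 and 73.7 FPKM in WT 1, 7 and 8, and at 79.7, 148 and 129 FPKM in KO 1, 7 and 8. *Glud1*, glutamate dehydrogenase, was at 44.6 to 48.8 FPKM in WT and 43.1 to 50.3 FPKM in KO muscles, with a log2 fold change of 0.015 and a 95% interval of -0.23 to 0.26.

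Some of the genes that varied between mice of 1 genotype shared an order of libraries. *Idh2* and *Got1* both ran from KO 7 through KO 8, WT 1, WT 7 and KO 1 down to WT 8, which is the order of the 7 slow fiber markers apart from the exchange of KO 7 and KO 8. *Myh7*, the slow myosin heavy chain, was at 24.3, 22.1 and 0.05 FPKM in WT 1, 7 and 8, and at 15.2, 50.5 and 77.4 FPKM in KO 1, 7 and 8. The library with the least *Myh7*, WT 8, was also the lowest in *Idh2* and *Got1*. *Pdk4*, with WT 1 highest and KO 1 lowest, and *Pcx*, with KO 1 highest and WT 1 lowest, had other orders. How far the slow fiber content of the dissected pieces contributes to the values of these genes was not tested. With KO 1 and WT 8 both left out, a choice made after their values were seen, both remaining KO libraries exceeded both remaining WT libraries for 17 of the 35 genes (48.6%), against 30.2% of all tested genes. They lay below them for 7 (20%), against 27.6% of all tested genes, and none of the 35 was called. Because of that choice, these shares cannot tell whether the 35 genes differed more often than other genes. Leaving out KO 1 alone also gave 17 genes above (48.6%), against 24.9% of all tested genes.

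**Figure D3:**
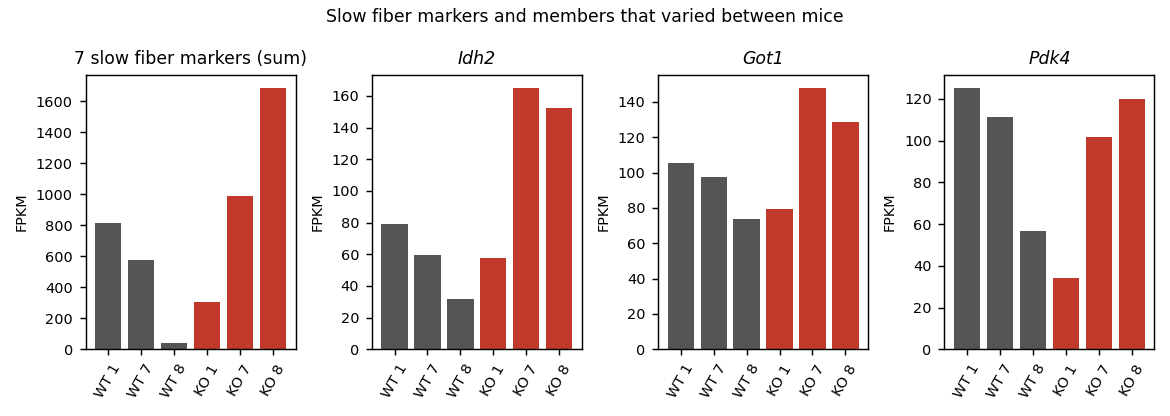
Bars give, for each of the 6 libraries, the summed FPKM of 7 slow fiber markers (without *Myh2*) and the FPKM of *Idh2*, *Got1* and *Pdk4*. The marker sum is lowest in WT 8 (39.4 FPKM) and highest in KO 8 (1687 FPKM), *Idh2* is lowest in WT 8 (31.9 FPKM) and highest in KO 7 (165 FPKM), and KO 1 stays within the WT range for both.

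The fold changes of the 35 genes went with the GC content of their transcripts. Across the 35 genes, which share the same 6 libraries and are not independent replicates, Pearson's r was 0.756 and Spearman's rho 0.738. The same relation held for all 11985 tested genes of known GC content (r = 0.429, rho = 0.704). Of the 13 genes with a GC content of at least 50%, 12 had a positive log2 fold change, with a median of 0.34, and of the 22 genes with less, 8 had a positive one, with a median of -0.04. Over all tested genes the medians were 0.28 and -0.19.

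Subtracting this trend from each library moved several of the values above towards 0 or past it. The log2 fold change of *Pdk2*, whose GC content is 56.9%, went from 0.48 to 0.02, and that of *Mdh2* (54.8%) from 0.34 to 0.03. *Dld*, with 40.0% the lowest GC content of the 35, went from -0.24 to 0.12, and *Idh3a* and *Sucla2* also changed sign. *Pdhx* (45.4%) went from 0.26 to 0.45, *Idh1* from 0.21 to 0.45 and *Ogdh* (52.3%) from 0.37 to 0.24. Of the 35, these 3 were the genes with an unadjusted p under 0.05 after the correction. Among the 11985 tested genes of known GC content, 639 were higher and 647 lower by that measure. *Pcx* (57.3%) went from 0.78 to 0.30, *Sdhb* (54.1%) from 0.44 to 0.18 and *Idh2* from 1.09 to 0.70. After the correction 29 of the 35 genes had a positive value, against 5913 of the 11985 tested genes of known GC content. The median of the 35 was 0.10, against -0.004 for all tested genes, and none was called. Before the correction, the median level of the 35 varied between replicates with an SD of 0.121 on the log2 scale. Whether the trend arose in the libraries or in the muscles was not tested.

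**Figure D4:**
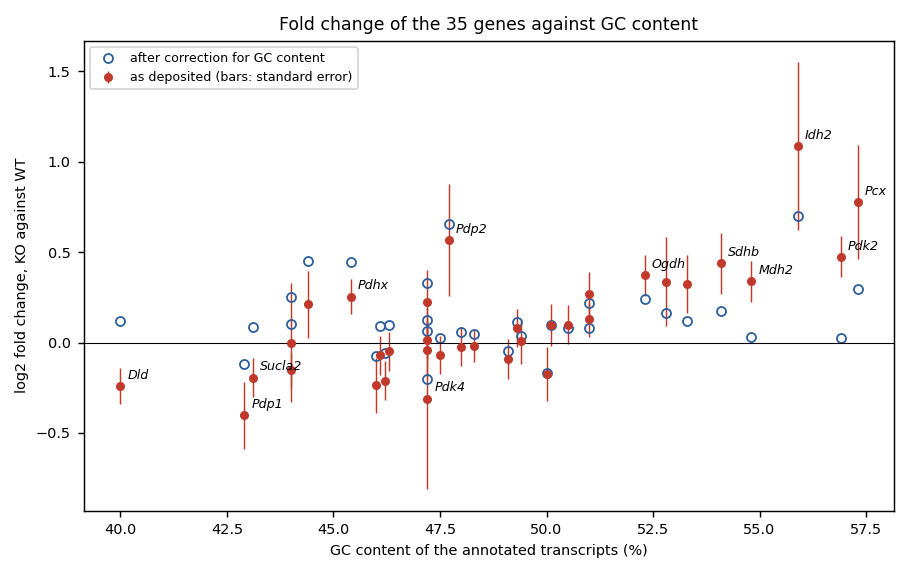
Each filled point is 1 of the 35 genes, with the GC content of its transcripts in percent on the horizontal axis, its log2 fold change on the vertical axis and a bar for the standard error, and each open circle gives the same gene after correction for GC content. Filled points rise from left to right (Pearson's r = 0.756), from *Dld* at 40.0% GC to *Pcx* at 57.3% GC, while 29 of the 35 open circles lie above 0. After the same correction, 5913 of the 11985 tested genes of known GC content had a positive value.

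Beyond the 35 genes, 39 neighbours of the pathway are reported, of which 38 were tested and none was called. Among the 21 linked enzymes reported, 3 (14.3%) were higher in KO muscles at an unadjusted p under 0.05 (limma), near the 15.3% of all tested genes. *Glul*, glutamine synthetase, was at 53.2, 44.7 and 68.4 FPKM in WT 1, 7 and 8, and at 102, 113 and 152 FPKM in KO 1, 7 and 8. All KO libraries exceeded all WT libraries, with a log2 fold change of 1.14 (limma, adjusted p = 0.0667), and 1.12 after the GC correction. The other 2 enzymes were *Bckdha*, which opens the oxidation of branched-chain keto acids (log2 fold change 1.29, adjusted p = 0.07), and *Pck1*, phosphoenolpyruvate carboxykinase (2.36, adjusted p = 0.179). After the GC correction the log2 fold changes were 0.76 for *Bckdha* and 2.13 for *Pck1*. *Pck1* overlapped between the genotypes, at 1.89, 0.233 and 0.594 FPKM in WT 1, 7 and 8, and at 1.09, 15.2 and 3.31 FPKM in KO 1, 7 and 8. KO 7, the library with the most *Pck1*, also had the highest adipocyte marker sum (172 FPKM), whose part in this value was not tested, and without KO 7 the log2 fold change was 1.38.

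Of 7 carriers, the mitochondrial pyruvate carrier genes *Mpc1* (412 to 477 FPKM in WT, 328 to 425 FPKM in KO muscles) and *Mpc2* (293 to 457.5 FPKM and 268 to 298 FPKM) overlapped between the genotypes. The aspartate-glutamate carrier *Slc25a12* had a log2 fold change of 0.26 (limma, adjusted p = 0.164), and 0.32 after the GC correction. The dicarboxylate carrier *Slc25a10* had one of 0.86 (limma, adjusted p = 0.17), and 0.28 after the GC correction. Both were higher at an unadjusted p under 0.05. They make 2 of the 6 tested carriers (33.3%), against 15.3% of all tested genes, and no carrier was lower. The list was chosen with earlier results of these data known, and this share rests on 6 genes. Among 11 genes for complex II assembly, lipoylation and mitochondrial sirtuins, *Sirt3* was higher (0.47) at an unadjusted p under 0.05 (limma). *Sdhaf3* (-0.43) and *Lipt2* (-0.57) were lower by the same measure. These were 9.09% and 18.2% of the 11, against 15.3% and 10.9% of all tested genes, and none was called. After the GC correction the log2 fold changes were 0.345 for *Sirt3*, -0.084 for *Sdhaf3* and -0.71 for *Lipt2*.

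Of 15 transcriptional regulators of oxidative metabolism, 1 was called. *Esrra* (ENSMUSG00000024955, minus strand of chromosome 19, 6910977 to 6921813) encodes ERRα, a nuclear receptor known to bind promoters of TCA cycle genes. It was at 6.26, 7.78 and 9.68 FPKM in WT 1, 7 and 8, and at 17.7, 21.8 and 18.5 FPKM in KO 1, 7 and 8. *Esrra* rose in KO muscles, with a log2 fold change of 1.29 and a standard error of 0.17 (limma, adjusted p = 0.0435), but it passed in only 5 of 20 alternative settings, over which its adjusted p ran from 0.00353 to 0.415, and its log2 fold change was 0.75 after the GC correction. With *Esrra*, 5 of the 15 (33.3%) were higher at an unadjusted p under 0.05, against 15.3% of all tested genes, and none was lower by that measure. The list was chosen with earlier results of these data known, so this share cannot tell whether such regulators changed more often than other genes. The other 4, none of them called by limma, were the nuclear receptors *Ppara* (log2 fold change 1.29, adjusted p = 0.12) and *Ppard* (1.10, adjusted p = 0.0716), the coactivator *Ppargc1b* (0.75, adjusted p = 0.145) and *Klf15*, a regulator of amino acid and lipid use (1.07, adjusted p = 0.0758). After the GC correction their log2 fold changes were 1.185, 0.59, 0.24 and 0.75, in that order. The study, which used Cufflinks at q under 0.05 on the same groups, reported *Ppara* and *Ppard* as significantly increased. *Ppargc1a*, the coactivator PGC-1α, was at 5.72 to 6.64 FPKM in WT and 5.57 to 6.46 FPKM in KO muscles.

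Since *Esrra* was the called regulator, the promoters of the 35 genes were searched for the core of the ERR half-site, AAGGTCA, on both strands, a motif chosen after the value of *Esrra* was seen. RefSeq promoters on GRCm38.p6, each 300 bases long from 250 before to 50 after an annotated start, were matched for 32 of the 35 genes, with 41 windows in all, and not for *Idh3a*, *Pdp1* and *Sdhc*. The motif stood in 3 of the 41 windows (7.32%), against 4.72% of 32851 windows of all genes. These 3 promoters are shown from 5′ to 3′ on the strand of the gene, with the motif in capitals, which reads TGACCTT where it lies on the other strand.
Ogdh promoter, chr11:6291920-6292219, plus strand: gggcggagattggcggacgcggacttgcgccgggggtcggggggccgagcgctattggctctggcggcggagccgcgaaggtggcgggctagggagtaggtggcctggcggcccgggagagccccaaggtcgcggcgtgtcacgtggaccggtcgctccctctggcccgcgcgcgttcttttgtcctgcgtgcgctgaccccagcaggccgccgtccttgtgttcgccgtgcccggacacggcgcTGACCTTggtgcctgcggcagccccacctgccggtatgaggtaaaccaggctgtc
Sdhd promoter, chr9:50603800-50604099, minus strand: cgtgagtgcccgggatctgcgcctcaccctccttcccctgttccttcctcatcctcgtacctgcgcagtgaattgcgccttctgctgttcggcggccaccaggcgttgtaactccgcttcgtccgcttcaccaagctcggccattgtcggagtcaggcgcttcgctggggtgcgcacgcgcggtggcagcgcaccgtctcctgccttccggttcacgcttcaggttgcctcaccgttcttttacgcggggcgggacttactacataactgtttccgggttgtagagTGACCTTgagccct
Got1 promoter, chr19:43524556-43524855, minus strand: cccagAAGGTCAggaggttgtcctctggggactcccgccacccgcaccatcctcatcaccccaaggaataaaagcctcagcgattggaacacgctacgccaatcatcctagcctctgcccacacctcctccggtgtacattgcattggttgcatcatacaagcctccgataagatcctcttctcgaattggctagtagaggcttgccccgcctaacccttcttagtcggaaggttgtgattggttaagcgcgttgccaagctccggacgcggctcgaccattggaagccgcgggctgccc

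Of the 3 genes, *Ogdh* was higher in all KO libraries, while *Sdhd* (141 to 174 FPKM in WT, 141 to 165 FPKM in KO muscles) and *Got1* overlapped between the genotypes. In *Ogdh* the motif lies at positions 246 to 252 of the window, across the start, in *Sdhd* at 287 to 293, after it, and in *Got1* at 6 to 12, far upstream. *Sdhb*, *Mdh2*, *Pdhx*, *Pdk2* and *Pcx*, the other genes higher at an unadjusted p under 0.05, had no match in their windows, which says only that these letters are absent there.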

How the data were processed

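Total RNA of the GAS muscles was made into TruSeq Stranded mRNA libraries. Reads were aligned to GRCm38 by TopHat, and the authors deposited the FPKM that Cufflinks gave for each gene and library, without counts, and tool versions and the annotation release are not given in the sources used here. Genotypes came from the labels. Members and gene lists (5 roles, neighbouring genes, regulators and 8 sets of cell markers) were chosen with earlier results of these data known. Given in full are members without overlap at an unadjusted p under 0.05 and the most abundant member of each role. Of the other genes, *Kcnab2* and those of the pathway and regulator lists at an unadjusted p under 0.05 are named. *Pdk4*, *Idh2*, *Mpc1*, *Mpc2*, *Ppargc1a* and other genes outside this rule were named after their values were seen.

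The 12334 genes averaging 0.5 FPKM or more were tested on log2(FPKM + 0.1) by limma 3.58.1 (R 4.3.3) with a variance trend, two-sided, adjusted by Benjamini and Hochberg over all of them, and called at an adjusted p under 0.05. The script was tested on simulated data. Depth was estimated from low FPKM of genes with 1 transcript of 1500 to 6000 bases, of which 89.9% to 93.5% were whole fragments within 0.15. Coordinates and GC content came from GENCODE vM21, which held 32935 of the 37979 identifiers and gave a GC content for 97.2% of tested genes. The GC correction subtracted from each library a loess curve of span 0.3. Each library is 1 mouse, so p-values rest on the spread between mice, which limma estimates for each gene partly from the other genes. The labels do not say what the numbers 1, 7 and 8 mean, and the main test did not pair libraries by them. The deviations of same-numbered libraries from their group means correlated at -0.025, -0.08 and 0.034. Those of differently numbered libraries correlated at -0.066 to 0.086. With so few libraries this cannot tell whether the numbers mark a shared origin. Alternatives covered the pseudocount, filter, scaling, variance model, weights, number as a block, GC content, length, genes listed at 0 and leaving out each library. Leaving out KO 1 and WT 8 together was added after the data were seen. Some neighbouring genes of the pathway are not reported here, so counts over the linked enzymes leave them out.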

Additional observations from a re-analysis of the deposited data

How the results depend on the processing

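None of the 35 genes was called in the main setting or in 19 of 20 alternatives, and 6 were with array weights. The 35 genes numbered 6 higher and 1 lower at an unadjusted p under 0.05, and 5 and 1 with the replicate block, which left 13 of all tested genes called in place of 40 and changed no member's call. Over all 12334 tested genes, 1891 were higher and 1339 lower in the main setting, and 1754 and 1030 with the block. Among the 35, lower genes numbered 2 with median scaling and 2 with quantile normalization, and 0 without the variance trend. In these settings 1785, 1807 and 1223 of all tested genes were lower, in that order. Higher and lower genes of the 35 numbered 10 and 3 with array weights, against 2777 and 2316 of all 12334 tested genes. They numbered 3 and 0 with the GC correction, against 639 and 647 of 11985. With the GC correction and replicate block they numbered 1 and 0, against 551 and 580 of 11985. The length correction gave 2 and 4, against 1438 and 1993 of 11985. Among all tested genes at that p, 58.5% were higher, 48.3% with median scaling, 47.2% with quantile normalization, 49.7% with the GC correction and 41.9% with the length correction. Leaving out 1 library gave 2 (without KO 8) to 9 higher genes of the 35, with 3 without WT 7. Lower genes of the 35 then numbered 0 (without KO 8 or WT 7) to 1. Over all 12334 tested genes, these fits gave 1392 to 1917 higher and 791 to 1343 lower genes. With 1 library left out, 9 to 17 of the 35 (17 without KO 1) had all KO above all WT libraries. For 4 to 7 (7 without WT 8) all KO lay below. The 17 were 48.6% of the 35, against 24.9% of all tested genes without KO 1, and the 7 were 20%, against 21.3% without WT 8. With KO 1 and WT 8 both out, a choice made after their values were seen, these counts were 17 and 7. The shares of all tested genes were then 30.2% and 27.6%.

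The sign of the log2 fold change held in all 20 alternatives for 21 of the 35 genes. With the GC correction, with or without the block, it turned for *Idh3a* (0.101), *Dld* (0.121), *Sucla2* (0.085), *Suclg1* (0.049), *Suclg2* (0.09), *Sdha* (0.058), *Pdhb* (0.098), *Dlat* (0.027) and *Pdk1* (0.066). It also turned with array weights for *Suclg1* (0.0), *Sdha* (0.008), *Pdk1* (0.132) and *Pdk3* (-0.295), with the length correction for *Sdhc* (-0.002), *Sdhd* (-0.17), *Pdk3* (-0.132) and *Glud1* (-0.071), with median scaling for *Sdhd* (-0.041), *Pdk3* (-0.048) and *Glud1* (-0.033), with quantile normalization for *Sdhd* (-0.032) and *Pdk3* (-0.092), with a pseudocount of 1 for *Pdk3* (-0.002), and without KO 1 and WT 8 for *Sdha* (0.028) and *Pdk3* (-0.178). Without 1 library, values ran from -0.037 to 0.003 for *Suclg1*, -0.061 to 0.052 for *Sdha*, -0.097 to 0.017 for *Pdhb*, -0.151 to 0.07 for *Pdk1*, -0.665 to 0.256 for *Pdk4*, -0.048 to 0.105 for *Sdhd*, -0.205 to 0.131 for *Pdk3* and -0.026 to 0.084 for *Glud1*. The causes were not tested. Depth limits *Pdk3* and *Pdp2* most.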
